A study of Homo sapiens with 6 samples.

Results

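The intergenic peaks were 401 of the 7772 AGO2-bound RNA regions (5.16%) in the deposited list of peaks, chosen as those whose annotation starts with "Intergenic". That label is the authors' own and means that their annotation placed the peak in no gene, and no gene name is given for any of the 401. The list came from HITS-CLIP in 22RV1, an established human prostate cancer cell line. Cells were transfected with a synthetic miR-194 mimic (3 libraries) or with a negative control (3 libraries), both at 20 nM, and were irradiated with ultraviolet light after 24 h to crosslink proteins to RNA. The antibody was directed against AGO2. Whether libraries of 1 group were separate cultures is not stated in the labels. The list gives each peak a score and no value per library or group, so the mimic could not be compared with the control, the read depth is unknown, and no value below has a replicate. The score is the authors' own, and none of the sources used here says what it measures. Here it only orders the peaks of this list, and coordinates are given as deposited, on hg19.

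AGO2 carries a microRNA to transcripts that pair with the seed of the microRNA, mostly in 3' UTRs. CLIP detects AGO2 on any RNA, so peaks can also fall on transcripts that a gene annotation does not hold, or past the annotated end of a gene. The mature human miR-194-5p (RefSeq, GRCh38.p14) is shown with its seed, bases 2 to 8, in capitals, because the sites described below are matches to it:
hsa-miR-194-5p: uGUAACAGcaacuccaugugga
The table lists target sites with their bases. The shortest full match, the 6mer, is TGTTAC. With a C before it the site is a 7mer-m8, with an A after it a 7mer-A1, and with both an 8mer, CTGTTACA. A listed site without the 6mer is called a variant. A 7mer match means an 8mer or either 7mer on the strand of the peak. How the sites were searched is not stated in the labels or the table.

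A group of 11 peaks on the plus strand of chromosome 15, from 25236947 to 25242605 (5659 nt), held the highest intergenic score and the largest number of peaks. Its peaks covered 1026 nt, and their scores added up to 16.5% of the sum over all intergenic peaks. Listed sites lay in 4 of the 11 peaks, and 1 further site lay in a nearby peak of the same strand. These are the sites of this locus, with the matching bases in capitals, named by the score of their peak:
score 502, 7mer-A1: atTGTTACA
score 267, 7mer-A1: ttTGTTACA
score 243, 6mer: tgTGTTACt
score 22, 8mer: aCTGTTACA
score 58, 8mer, 34.3 kb downstream: tCTGTTACA
The highest peak (25237191 to 25237286, 96 nt) scored 502, the 19th highest score of the whole list. It was 1 of 4 long peaks that followed each other with 1 or 2 nt between them, and the others scored 191, 243 and 188 in genomic order around it. The peak of score 243 held the 6mer and those of 191 and 188 held no listed site. Short peaks of 9 and 7 followed. A further 531 nt downstream stood a peak of 19 and then the one of 267 (25238169 to 25238283), and 4088 nt beyond that a run of 58, 22 and 26. The 8mer, the longest match of the group, was therefore in a peak of score 22, the middle and lowest of its run, whereas the highest peak held a 7mer-A1.

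**Figure D1:**
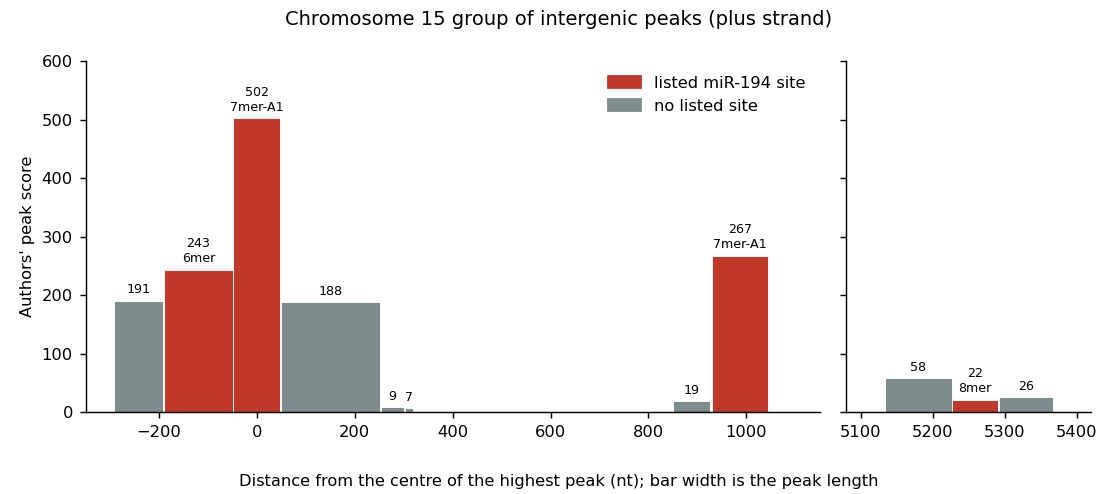
Authors' score (linear axis from 0) of the 11 peaks of the chromosome 15 group against the distance in nt of each peak from the centre of the highest one. The bar width is the peak length, red bars hold a listed miR-194 site and grey bars hold none. The red bars reach 502, 267 and 243, and the 8mer peak at the right reaches 22.

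No peak of another class lay within 50 kb of this group on either strand, and the minus strand held no peak within it. The nearest intergenic peaks were 28768 nt downstream, on the plus strand, with scores of 15 and 58. The nearest gene peaks on the same strand were in CYFIP1, 2.32 Mb upstream, and in KLF13, 6.42 Mb downstream. In RefSeq's gene order (GRCh38.p14) the stretch from CYFIP1 to KLF13 includes SNRPN, the host transcript SNHG14, 30 members of the SNORD116 snoRNA family, 48 of the SNORD115 family, and UBE3A. The stretch holds 268 RefSeq genes between CYFIP1 and KLF13, 43 of them protein coding. Part of it is known for parental imprinting and for Prader-Willi and Angelman syndromes. The list names 0 peaks for SNRPN, SNURF, SNHG14 or UBE3A, and 12 for all genes of the stretch, CYFIP1 and KLF13 included. Whether the group lies in any transcript of this stretch was not determined, since no hg19 annotation was used here. The 4 sites of the group were searched as pairs, by their bases and spacing, in GENCODE 29 transcripts, and none of the 6 pairs was found. The search used spliced sequences and the genomic spacing, so it could not find sites in a removed intron or on either side of one.

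The peaks outside this locus were mostly low. All 401 had a median score of 14 (interquartile range 12 to 16), against 15 (12 to 24) for the 7371 other peaks, 13 (12 to 15) for 1585 intron peaks and 16 (12 to 27) for 259 peaks of non-coding transcripts. A score of exactly 12 was held by 98 intergenic peaks (24.4%), against 914 of the other peaks (12.4%). Scores of 12 to 16 made up 64.8% of intergenic and 66.8% of intron peaks, against 41.2% of all other peaks. Scores of at least 50 were reached by 24 intergenic peaks (5.99%), against 790 other peaks (10.7%), 8 intron peaks (0.505%) and 31 peaks of non-coding transcripts (11.97%). Without the chromosome 15 group, 18 of 390 intergenic peaks reached 50. The intergenic median thus lay between those of intron peaks and of all other peaks, and high scores were more frequent than among intron peaks in this list. No test was made of these differences, because neighbouring peaks may share a transcript and are not replicates. The median length was 57 nt (43 to 79), against 67 nt over all peaks and 57 nt (44 to 75) for intron peaks.

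Intergenic peaks lay on every chromosome of the list except Y, which had 4 peaks in all. The plus strand held 207 (51.6%, exact Clopper-Pearson 95% interval 46.6 to 56.6%, which covers counting error only) and the minus strand 194. Chromosome 1 had the most, with 47, followed by chromosome 12 with 33, chromosome 2 with 32 and chromosome 5 with 26. As a share of the peaks of a chromosome, they ranged over the autosomes from 2.02% on chromosome 3 (8 of 397, 0.874 to 3.93%) to 8.76% on chromosome 15 (24 of 274, 5.69 to 12.8%). Of the 24 on chromosome 15, 11 belonged to the group above and 13 lay outside it. The high share of chromosome 15 thus rested largely on 1 locus, and its interval counts these peaks as separate. The split between strands was uneven on some chromosomes. Plus-strand peaks numbered 20 of 24 on chromosome 15, 17 of 20 on chromosome 16 and 10 of 33 on chromosome 12.

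**Figure D2:**
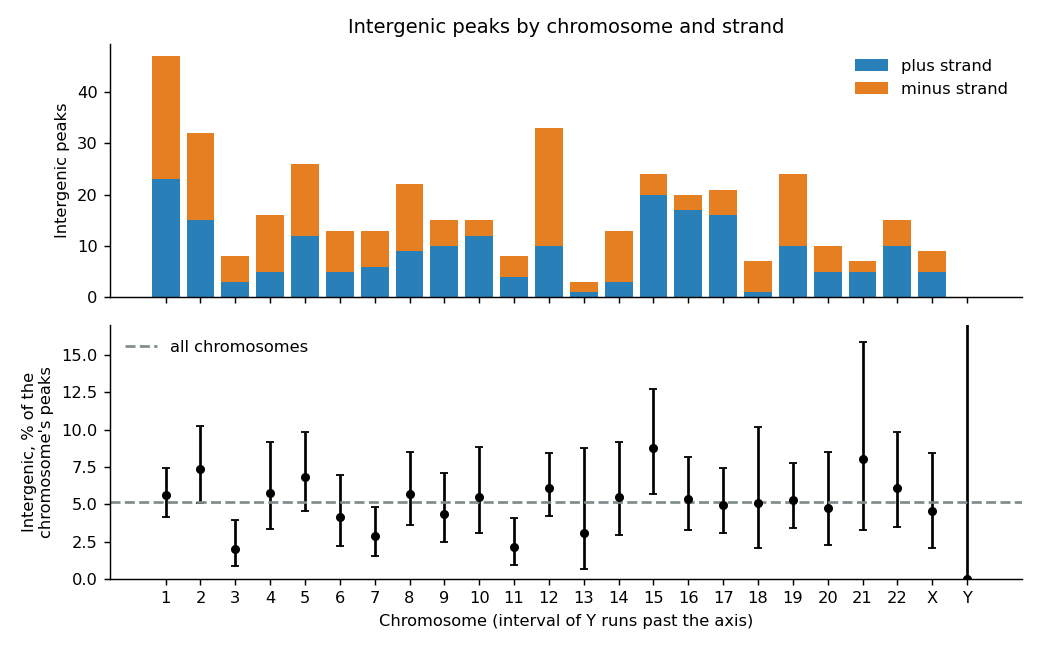
Upper plot: number of intergenic peaks per chromosome, with plus and minus strand stacked. Lower plot: intergenic peaks as a percentage of the peaks of each chromosome, with exact 95% intervals (counting error only) and the share over all chromosomes as a dashed line. Chromosome 15 has the highest share, 8.76%, and chromosomes 3, 11 and 7 lie lowest among those that hold any.

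Part of this unevenness lay in runs over longer stretches, which were joined after seeing the data where peaks of 1 strand were at most 500 kb apart. On the plus strand of chromosome 16, 11 of the 17 peaks lay between 85203646 and 85636823, a stretch of 433 kb with no gene peak on that strand. Their scores ran from 6 to 17 with a median of 12, and none had a listed site. The minus strand of chromosome 12 held a run of 7 peaks over 55.1 kb (57757967 to 57813088), of which 1 scored 58 with a 7mer-A1 match and the median was 12. A run of 7 on the plus strand of chromosome 17 was spread over 515 kb, with 3 gene peaks of that strand within it. Its peaks scored 6 to 14, again without a listed site. The chromosome 15 run of 13 peaks had a median of 58, so runs of many intergenic peaks were found at both low and high scores.

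Joined within 5 kb on the same strand, the 401 peaks formed 314 groups, of which 262 were 1 peak, 34 were pairs and 18 had 3 or more. The 52 groups of at least 2 peaks held 139 peaks (34.7%). Most of these groups were compact: 40 of the 52 spanned at most 500 nt, and 56 of 87 neighbouring pairs had at most 5 nt between them. No intergenic peaks overlapped on opposite strands. Peaks in groups and lone peaks had the same median score, 14. A 7mer match was listed in 23 of the 139 grouped peaks (16.5%) and in 26 of the 262 lone peaks (9.92%), with 13.4% over all peaks. The 139 peaks came from 52 groups and are not independent, and this difference was not tested.

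After chromosome 15, the groups with the most peaks were a plus-strand group of 6 on chromosome 8 (42981069 to 42982637, scores 18 to 156), a minus-strand group of 5 on chromosome 5 (148873841 to 148874319, 6 to 167) and one of 5 on the minus strand of chromosome 12 (57811062 to 57813088, 6 to 13). Groups of 4 lay on the minus strand of chromosome 19 (23402329 to 23402705, 13 to 145) and on the plus strand of chromosome 17 (79493072 to 79494118, 6 to 14). The groups on chromosomes 8, 5 and 19 each had their highest score in a peak with a 7mer-m8 match. Those on chromosomes 12 and 17 held no listed site, and none of their peaks passed 14.

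A 7mer match was listed in 49 of the 401 intergenic peaks (12.2%, exact 95% interval 9.18 to 15.8%), where the background over all 7772 peaks was 13.4%. The share thus lay near that background. It was 15.0% (13.7 to 16.5%) in coding exon peaks, 20.5% (15.7 to 25.9%) in peaks of non-coding transcripts and 4.61% (3.63 to 5.76%) in intron peaks. The listed pattern limits these comparisons. All 64 intergenic sites had 9 listed bases, 63 of them with the 6mer from place 3 (counted from 1 at the 5' end), whereas 94.9% of intron sites had it from place 2. Any listed site was present in 58 intergenic peaks (14.5%), with 19.4% over all peaks, and an 8mer in 17 (4.24%), with 4.16% over all peaks. Of the 58, 1 held nothing but a variant site, against 203 of 1451 other peaks with a site. This was not particular to intergenic peaks. Among peaks with a site, the 6mer was present in 57 of 58 intergenic, 73 of 76 intron and 69 of 71 non-coding transcript peaks. In coding exon peaks it was present in 513 of 667. A site on the opposite strand was listed in 1 intergenic peak.

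Of the 64 sites, 17 were 8mers, 22 were 7mer-m8, 13 were 7mer-A1, 11 were 6mers and 1 was a variant. The base that would pair with the last base of the seed was C in 39 of the 63 sites with a 6mer and T in 17. The 52 7mer sites began at a median of 9 nt from the peak centre, and 41 (78.8%) were within 20 nt of it. More than 1 site was listed in 5 peaks. The peak with 3 (chromosome 2, 110497515 to 110497573, plus strand) scored only 12. Its sites, shown because a 6mer, a 7mer-m8 and an 8mer stand within 1 peak at spacings of 8 and 11 nt, were:
6mer: taTGTTACt
7mer-m8: tCTGTTACt
8mer: gCTGTTACA

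The share of intergenic peaks with a 7mer match climbed with the score, alongside that of the other peaks. It was 2 of 45 (4.44%) at scores of 5 to 11, against 2.16% of the other peaks. At 12 to 14 it was 15 of 195 (7.69%), against 5.81%, and at 15 to 19 it was 11 of 97 (11.3%), against 9.04%. At 20 to 49 it was 10 of 40 (25%), against 22.3%. At 50 and above it was 11 of 24 (45.8%), against 44.1%, and 9 of 18 (50%) without the chromosome 15 group. The intergenic 7mer share was thus the higher in each band, by at most 2.70 percentage points. Over all bands together it was the lower. For any listed site the intergenic share was the lower at 12 to 14 (7.69%, against 8.34%) and at 15 to 19 (12.4%, against 13.8%). It was also the lower at 50 and above (54.2%, against 59.6%). It was the higher at 5 to 11 (6.67%, against 3.73%) and at 20 to 49 (37.5%, against 34.5%). These counts describe the list, with no test.

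Peaks with a 7mer match had a median score of 17 (13 to 39), against 13 (12 to 16) for the 352 without one. In the other peaks the medians were 31 (18 to 67) and 14 (12 to 20). By class, the intergenic medians were 16 for 8mers (17 peaks, highest 58), 16.5 for 7mer-m8 (20 peaks, highest 167), 23 for 7mer-A1 (12 peaks, highest 502) and 31 for 6mers (8 peaks, highest 243). The order of the medians therefore did not follow the length of the match, and the ranges overlapped in all classes. Length went with both measures. Among intergenic peaks longer than 67 nt the medians with and without a 7mer match were 24 and 14, and among those up to 67 nt they were 15.5 and 13. The part of length in the difference was not tested.

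**Figure D3:**
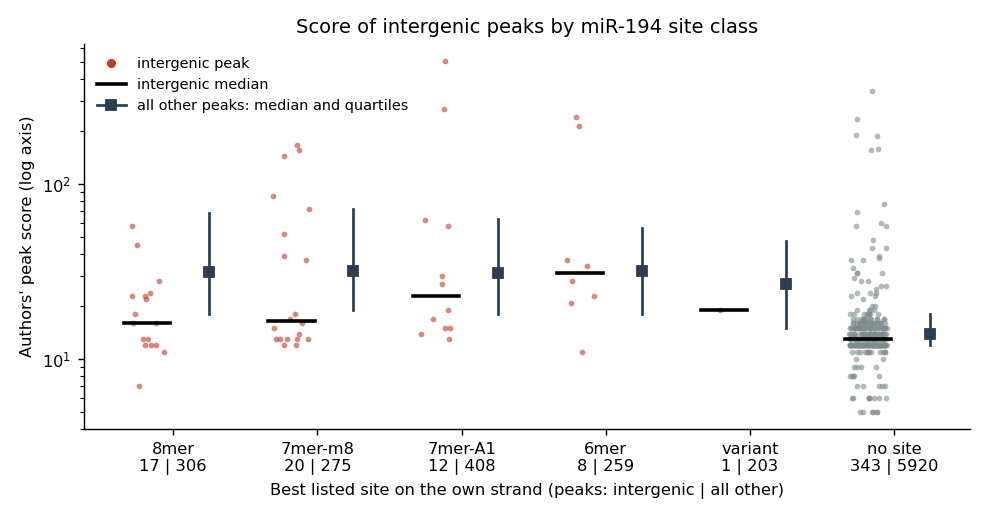
Authors' score (log axis) of each intergenic peak (points) by its best listed miR-194 site, with the intergenic median as a black bar. To the right of each, a square with a line gives the median and quartiles of all other peaks, and the numbers under each class are peaks of both sets. Intergenic medians are 16 to 31 for peaks with a seed match and 13 for peaks with no site.

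Scores were also set side by side within groups. In 22 groups some peaks had a listed site and others had none. The highest peak with a site scored above the highest without one in 15 groups, below it in 6 and the same in 1, and the median ratio was 2.15. The lengths of the peaks compared were not matched. On chromosome 22 the peak without a site had 7 nt, fewer than the 9 listed bases of a site, beside 104 nt. On the plus strand of chromosome 19, 1 such pair had 14 nt without a site and 100 nt with one. The widest ratio was on chromosome 19 (minus strand, 23402329 to 23402705), where the peaks with a site scored 145 and 52 and those without scored 14 and 13. The reverse was widest on chromosome 1 (minus strand, 247351016 to 247353081), where the peak with a site scored 13 and the highest without one 69. The chromosome 14 group on the minus strand (77806644 to 77806957) also went this way, with 18 for the peak with a site and 48 for the highest without.

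**Figure D4:**
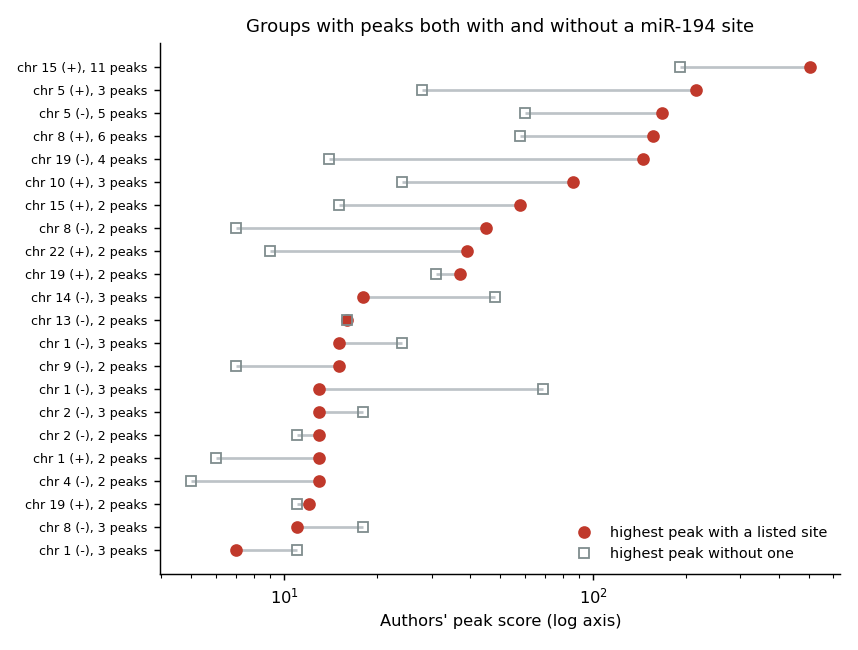
For each of the 22 groups with both kinds of peak, the authors' score (log axis) of the highest peak with a listed miR-194 site (filled circle) and of the highest without one (open square). Groups are ordered by the score of the peak with a site. The circle lies to the right in 15 groups and to the left in 6.

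Within 5 kb, intergenic peaks followed gene peaks more often than they preceded them. A peak of a gene lay within 5 kb on the 5' side, on the same strand, for 43 intergenic peaks (10.7%, exact 95% interval 7.87 to 14.2%) and on the 3' side for 7 (1.75%, 0.705 to 3.56%). No such counts were made for other peaks, so whether this is particular to intergenic peaks was not tested. The 43 peaks formed 23 groups, beside peaks of 23 genes, and for 31 of them the nearest gene peak was annotated to a transcript end. A 7mer match was listed in 10 of these 43 (23.3%) and in 39 of the other 358 (10.9%), with 13.4% over all peaks. Peaks of 1 group are not independent, and this difference was not tested. The median scores of the 43 and the 358 were 15 and 14. For most peaks no gene peak was near: the median distance to the nearest one on the 5' side was 510153 nt.

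**Figure D5:**
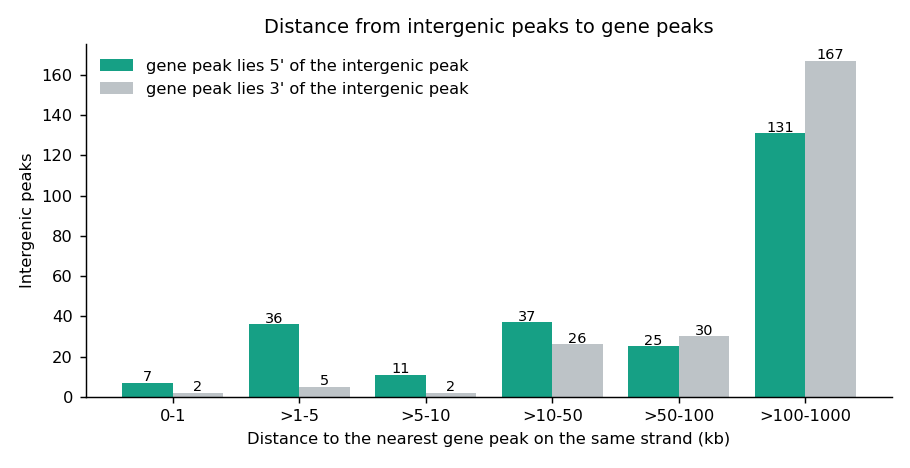
Number of intergenic peaks by the distance in kb to the nearest gene peak of the same strand, where the gene peak lies on the 5' side (green) or on the 3' side (grey). Distances over 1000 kb are not drawn. Up to 10 kb the green bars count 7, 36 and 11 peaks and the grey ones 2, 5 and 2.

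The gene with the highest such peaks was CSNK1A1, a casein kinase of WNT signalling. Its 5 intergenic peaks lay 945 to 1342 nt past a CSNK1A1 peak and scored 167, 60, 15, 11 and 6. POMK, a kinase of protein O-mannosylation, was followed by 6 peaks at 2770 to 4269 nt that scored up to 156. TNFRSF10A, a death receptor, was followed by 2 peaks with a highest score of 45 and an 8mer match. CNIH1, a cargo receptor of the secretory pathway, was followed by 2 without a listed site, the nearer of which had 2 nt between it and a CNIH1 peak (highest score 43). SNRPD3, a core protein of spliceosomal particles, had 2 (39), and the zinc exporter gene SLC30A1 had 3 (24).

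Whether an intergenic peak lies in a transcript of a later annotation was looked up by sequence. Pairs of listed sites up to 10 kb apart, at least 1 of them intergenic, were searched in GENCODE 29 transcripts by their bases and their exact spacing. The same search found 102 of 109 pairs of sites (93.6%) from 3' UTR peaks of 1 gene in a transcript of that gene. Of 27 pairs with an intergenic site, 12 were found, each on the same chromosome and strand, and none was found elsewhere. They place 6 intergenic peaks, from 6 groups, in annotated 3' UTRs, and the other 6 groups with such a pair, chromosome 15 included, were not found. Pairs in a removed intron, or on either side of one, could not be found this way. The remaining 41 intergenic peaks with a site had no second site in reach. The sites of 5 of these peaks are shown with their surroundings, because they tie regions without a gene name to a gene. Bases are from GENCODE transcripts (GRCh38), 5' to 3', with the seed match in capitals:
CSNK1A1, first site: gtgaaattcagtgaatgCTGTTACtaatcc
CSNK1A1, second site: gaatgctgttactaatcCTGTTACgagatg
LNPEP, first site: aaaactagatgtggatttTGTTACttaggc
LNPEP, second site: tcttctcacctatgccttTGTTACttttgt
SLC30A1: tttattcagatatcaattTGTTACAtaaac
MAN1A2: ctgataaagatgattttCTGTTACtttagc
KPNB1: gaagcagttgatgagtgCTGTTACtaatgc

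The LNPEP peak (chromosome 5, 96367780 to 96367923, plus strand) scored 215, the sixth highest of the intergenic peaks. LNPEP encodes an aminopeptidase of insulin-responsive vesicles, and the list names 0 peaks for it. Both of its sites are 6mers, 68 nt apart, and they lay 5391 and 5323 nt from the end of the GENCODE transcript. The peaks on either side of it scored 28 and 8. The CSNK1A1 peak (chromosome 5, 148874116 to 148874236, minus strand) scored 167, above all 6 peaks that the list names for CSNK1A1, the highest of which scored 93. Its 7mer-m8 sites were 12 nt apart. The pair was also present in AC021078.1, another gene of the same chromosome and strand.

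The other peaks shown were low. The SLC30A1 peak (chromosome 1, 211746816 to 211746896, minus strand) scored 15, the peak of the Golgi mannosidase gene MAN1A2 (chromosome 1, 118069707 to 118069795, plus strand) scored 13, and that of the nuclear import receptor gene KPNB1 (chromosome 17, 45762053 to 45762097, plus strand) scored 12. The highest peaks named for these genes scored 32, 95 and 168. Beside POMK the pair was not found, although the intergenic peaks lay within 5 kb of it.

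Several of the highest intergenic peaks had no listed site and no gene peak close by. The highest of these was on chromosome 2 (133038871 to 133038917, minus strand, 47 nt), with a score of 339, the second highest of all intergenic peaks. Another on chromosome 2 (191402647 to 191402738, minus strand) scored 236 and lay 12575 nt upstream of a NEMP2 peak. Next came 191, in the chromosome 15 group. Peaks of 158 on chromosome 5 (6848523 to 6848554, minus strand, 32 nt) and 156 on chromosome 14 (90178876 to 90178948, plus strand) also lacked a site. The 12 highest intergenic peaks thus divided evenly, 6 with a listed site and 6 without. The chromosome 15 group held 5 of the 12, so they are not 12 separate loci.

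The highest peaks with an 8mer, the longest match, were lower. The highest was the chromosome 15 peak of 58 named above (25271487 to 25271547). The TNFRSF10A neighbour on chromosome 8 (23045586 to 23045736, minus strand) followed with 45. Peaks on chromosome 18 scored 28 (37376046 to 37376139) and 24 (65164474 to 65164553), both on the minus strand. The peak of 24 lay 9726 nt past a peak of DSEL, a gene of dermatan sulfate synthesis. Peaks of 23 lay on chromosome 14 (57762224 to 57762284, plus strand) and on chromosome 6 (99316512 to 99316579, minus strand). Their sites were:
score 28, chromosome 18: tCTGTTACA
score 24, chromosome 18: tCTGTTACA
score 23, chromosome 14: aCTGTTACA
score 23, chromosome 6: tCTGTTACA
The 17 intergenic 8mer peaks thus had a highest score of 58, whereas the 306 8mer peaks of the other classes had a median of 31.5 and an upper quartile of 68.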

How the data were processed

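AGO2 HITS-CLIP libraries of 22RV1 cells were processed by the authors with cutadapt 1.8.1, FastQC, TopHat2 2.0.9, SAMtools and MACS2 on hg19, per the submitters' processing notes, which give no order or settings. The deposited score is a whole number of unstated meaning, given once for each peak, and the peak names say merged and called by strand. Whether libraries were pooled is not stated, and 0 columns belonged to other samples. Depth is unknown.

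From these the intergenic peaks were taken by their annotation, joined into groups within 5 kb on the same strand, and described by counts, medians and exact Clopper-Pearson 95% intervals. No test was made, since the list holds no replicate. Site positions were counted from the 5' end of the peak. Grouping and the transcript search (GENCODE 29, by bases and spacing, with no conversion of coordinates) were checked on data with known answers. By rule the text names the peaks of the chromosome 15 group, the 12 highest, the 6 largest groups, the 6 highest with an 8mer and the 3 highest without a site. Peaks with several sites, extremes among groups with and without a site, neighbours of named genes and peaks matched to transcripts were named after their values were seen. Transcript matches, score bands and runs were added after the data were seen. Members and comparisons were chosen with earlier results of these data known. A single transcript match is not reported here. Alternatives are in the closing section. Python 3.11.15, numpy 2.4.6, pandas 2.3.3, scipy 1.17.1 and matplotlib 3.10.9 were used.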

Additional observations from a re-analysis of the deposited data

How the results depend on the processing

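The share of intergenic peaks with a 7mer match, 12.2%, was 4.24% for 8mers alone (4.16% over all peaks) and 24.0% (29 of 121) among peaks above the median score of the list. The share of other peaks above that score was not counted. Theirs also rose with the score, from 9.04% at 15 to 19 to 44.1% at 50 and above. With any 6mer (14.2%), any listed site (14.5%), 1 peak per group (12.4%) or the chromosome 15 group left out (11.8%) the intergenic share stayed within its 95% interval. The median score of 14 became 15 among peaks of at least the median length of the list, and was 14 with 1 peak per group and without the chromosome 15 group. The 52 groups of at least 2 peaks were 53 when joined within 1 kb, 54 within 10 kb, 59 within 50 kb and 53 with strand ignored. The plus strand held 51.6% of peaks and of groups. A gene peak lay within 5 kb of 50 intergenic peaks on the same strand and of 51 on either strand. No paired analysis was possible because the table has no value per library, and for the same reason no replicate could be left out. The unknown depth and the unstated score limit every value.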
